A study of Mus musculus with 8 samples.

Results

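Mitochondrial ribosomal protein genes encode the proteins of the ribosome that works inside mitochondria. They were taken here as the protein-coding genes of the deposited table whose symbol starts with Mrpl (large subunit) or Mrps (small subunit) followed by a digit. The rule found 75 of 14353 genes, 47 named for the large and 28 for the small subunit, and left out 4 processed pseudogenes. Mrps34, Mrpl33 and Mrpl53 were not analysed here. RNA of the mouse ventral pallidum (VP), a basal forebrain region, was sequenced in 2 fractions. TRAP is the mRNA bound to ribosomes of glutamatergic neurons, purified through a hemagglutinin (HA) tag, and INPUT is labelled as RNA of all neurons and glia. All mice were untreated vGluT2-Cre x RiboTag animals, homozygous for VGluT2-Cre and heterozygous for Rpl22, so the mice behind INPUT carried the same Cre and tagged Rpl22 alleles as those behind TRAP. Cre came from the Slc17a6 locus, which encodes vGluT2, and the tag sits on the cytosolic ribosomal protein Rpl22, so the purification collects cytosolic ribosomes and no mitochondrial ones. Tissue of 7 to 11 mice, male and female, was combined in each of 4 pools named VP1.6, VP2.2, VP2.6, VP2.11, with 15 male and 23 female mice (38) in total. A TRAP and an INPUT library was made from every pool, so n = 4 for either fraction, and values by pool are always given in the order of these names. The mice of VP1.6 were 9–12 weeks old and those of the other pools 10–16 weeks. The methods describe INPUT as lysate set aside before the beads were added, yet name an unbound fraction where they describe sequencing, and they state that punches could include striatum or nucleus accumbens next to the VP.

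The mitochondrial genome encodes a small set of membrane proteins of the respiratory chain and the ATP synthase, and mitochondria translate them on their own ribosomes. The rRNAs of these ribosomes are made in the organelle, whereas every protein of the mitochondrial ribosome is encoded in the nucleus, translated by cytosolic ribosomes and imported. Some of the proteins have a homologue in bacterial ribosomes and others were added in the mitochondrial lineage.

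In bulk fractions such as these, fewer cells of a type and less RNA per cell cannot be told apart. Values are the deposited log2 CPM, read counts scaled to library size, fold changes are TRAP minus INPUT of log2 CPM averaged over the 4 pools, and adjusted p-values come from limma with the pool as a block, corrected by Benjamini-Hochberg over the 14249 genes tested. All 75 mitochondrial ribosomal protein genes were among the genes tested. As a check of the purification, Slc17a6 had 130–162 CPM in TRAP and 14.4–39.4 CPM in INPUT (log2 fold change 2.55, standard error 0.24, adjusted p = 7.3e-06). Of the marker genes of other cells, 4 of 5 for astrocytes, 4 of 5 for oligodendrocytes, 4 of 5 for microglia and 1 of 3 for GABA neurons were lower in TRAP, while 4 of 5 pan-neuronal markers and 1 of 3 endothelial markers were higher. Summed marker levels in TRAP and INPUT were 150–253 and 343–502 CPM for astrocytes, 900–1631 and 3506–3807 CPM for oligodendrocytes and 14.5–22.1 and 70.5–116 CPM for microglia. For the GABA neuron markers the fractions overlapped, with 918–1573 CPM in TRAP and 584–1394 CPM in INPUT. Of these markers Slc32a1 was lower in TRAP (log2 fold change -1.26, adjusted p = 0.0055 by limma). Gad1 (0.30, adjusted p = 0.47) and Gad2 (-0.05, adjusted p = 0.92) were not called. The part of these differences in cell content in the results that follow was not tested.

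Of the 75 genes, 16 (21.3%) were lower and 4 (5.33%) were higher in TRAP than in INPUT at an adjusted p under 0.05, and 55 passed in neither direction. Over all genes tested, the same fit called 16.8% lower and 15.4% higher. Their log2 fold changes had a median of -0.30 (quartiles -0.62 and -0.05), against -0.05 for all genes tested, and 59 of the 75 were below 0. TRAP and INPUT libraries did not overlap for 22 genes that were lower in TRAP (29.3%, against 24.4% of all genes) and for 5 that were higher (6.67%, against 23.3%). The share of genes called lower was thus near that of the whole table, while the share called higher was under it. Without the pool in the fit, 26 were called lower and 7 higher (background 24.8% and 23.2%), and these included all 20 genes called with the pool.

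**Figure D1:**
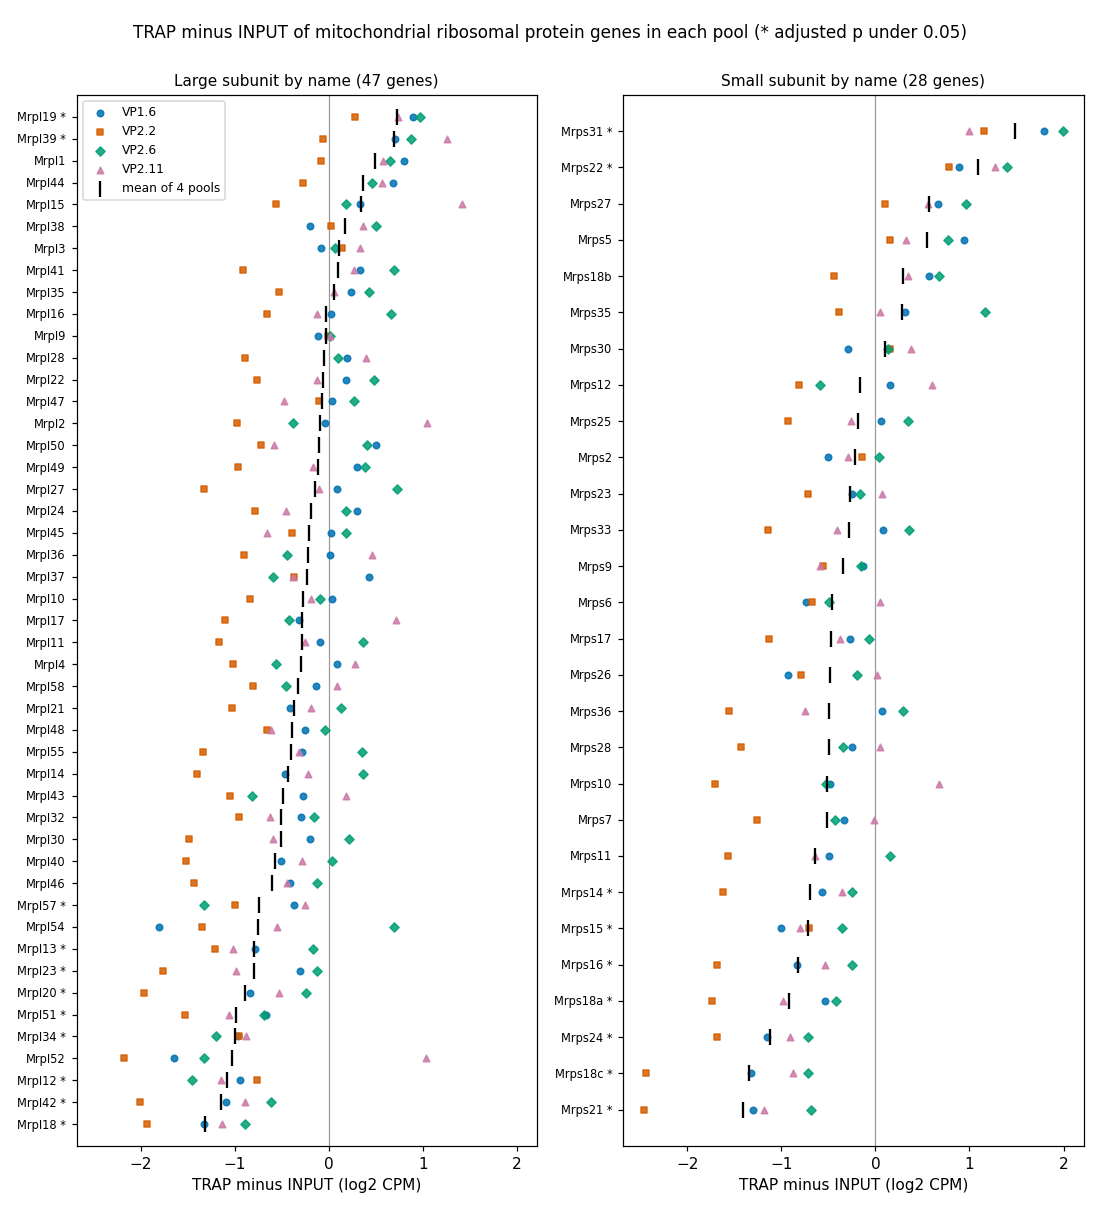
Difference between TRAP and INPUT (log2 CPM, x axis) of each gene (y axis) in each pool (symbols), with the mean of the 4 pools as a vertical tick and an asterisk at genes with an adjusted p under 0.05, for the 47 large-subunit genes (left) and the 28 small-subunit genes (right). Most means lie to the left of 0 (59 of 75), the squares of VP2.2 are the lowest of the 4 pools for 58 genes, and Mrps31 and Mrps22 lie to the right of 0 in every pool.

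The genes that were higher in TRAP were led by members of the small subunit that have no bacterial homologue. Mrps31 (ENSMUSG00000031533; chromosome 8, 22411361–22429665, plus strand, GRCm38), a mitochondrion-specific protein of the small subunit, had 236, 160, 245 and 185 CPM in TRAP of the pools in the order given above and 68.1, 72.2, 61.4 and 92.4 CPM in INPUT. The lowest TRAP library was above the highest INPUT library, and the means were 206 ± 40.8 and 73.5 ± 13.4 CPM (SD, n = 4 libraries each). Its log2 fold change reached 1.48 (standard error 0.23, adjusted p = 0.00037), with differences of 1.00 to 1.99 in the single pools. Mrps22 (ENSMUSG00000032459; chromosome 9, 98588730–98601660, minus strand), also a mitochondrion-specific small-subunit protein, had 21.8, 20.7, 27.1 and 32 CPM in TRAP and 11.8, 12, 10.3 and 13.3 CPM in INPUT. Its libraries did not overlap between fractions either, and its log2 fold change was 1.09 (standard error 0.26, adjusted p = 0.0052).

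The other 2 genes that were higher encode large-subunit proteins. Mrpl19 (ENSMUSG00000030045; chromosome 6, 81957851–81965958, minus strand) had 150, 115, 152 and 151 CPM in TRAP and 81, 95.3, 77.4 and 90.5 CPM in INPUT (log2 fold change 0.72, standard error 0.21, adjusted p = 0.019). Its fractions did not overlap, and TRAP of VP2.2 was the closest to INPUT. Mrpl39 (ENSMUSG00000022889; chromosome 16, 84717576–84735742, minus strand), whose protein resembles part of a threonyl-tRNA synthetase, had 53.6, 41.4, 57.2 and 78.2 CPM in TRAP and 33.1, 43, 31.3 and 32.7 CPM in INPUT (log2 fold change 0.69, standard error 0.25, adjusted p = 0.044). TRAP of VP2.2 lay below INPUT of the same pool, so the fractions overlapped for this gene. Mrpl19 was no longer called without VP1.6 (adjusted p = 0.11), without VP2.6 (0.13) or without VP2.11 (0.06), and Mrpl39 was not without VP1.6 (0.12), VP2.6 (0.16) or VP2.11 (0.19).

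Among the 16 genes that were lower, the largest differences were in 3 genes of families shared with bacteria. Mrps21 (ENSMUSG00000054312; chromosome 3, 95862634–95871519, minus strand), a small-subunit protein, had 69.2, 57.6, 86.2 and 65.8 CPM in TRAP against 170, 317, 139 and 149 CPM in INPUT. Every TRAP library was below every INPUT library, and INPUT of VP2.2 was the highest of all. The log2 fold change was -1.41 (standard error 0.26, adjusted p = 0.0013), the lowest of the 75 genes. Mrps18c (ENSMUSG00000016833; chromosome 5, 100798627–100804471, plus strand), which shares its bacterial family with Mrps18a and Mrps18b, had 63, 52.4, 77.9 and 69.1 CPM in TRAP and 158, 283, 129 and 127 CPM in INPUT (log2 fold change -1.34, standard error 0.27, adjusted p = 0.002). Mrpl18 (ENSMUSG00000057388; chromosome 17, 12911349–12916345, minus strand), a large-subunit protein, had 96.6, 96.9, 114 and 95.7 CPM in TRAP and 242, 370, 212 and 211 CPM in INPUT (log2 fold change -1.32, standard error 0.23, adjusted p = 0.0007). For both, the fractions were apart in every pool, and the TRAP libraries varied less between pools than the INPUT libraries.

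Mrpl42 (ENSMUSG00000062981), a mitochondrion-specific large-subunit protein, had 136, 124, 163 and 141 CPM in TRAP and 290, 500, 250 and 261 CPM in INPUT (log2 fold change -1.15, standard error 0.25, adjusted p = 0.0029). Mrpl51 (ENSMUSG00000030335), another of that class, had 85, 73, 84.1 and 67.6 CPM in TRAP and 135, 210, 136 and 141 CPM in INPUT (log2 fold change -0.99, standard error 0.22, adjusted p = 0.004). Neither gene's fractions overlapped. Mrps24 (ENSMUSG00000020477), a small-subunit protein, had low levels of 4.32, 3.23, 4.76 and 3.92 CPM in TRAP and 9.58, 10.4, 7.83 and 7.36 CPM in INPUT (log2 fold change -1.12, standard error 0.34, adjusted p = 0.021), and was no longer called without VP1.6 (adjusted p = 0.08) or without VP2.2 (0.078). Mrpl12 (ENSMUSG00000039640), the stalk protein on which translation factors dock, had 13.9, 15.1, 10.2 and 9.65 CPM in TRAP and 26.7, 25.6, 27.9 and 21.4 CPM in INPUT (log2 fold change -1.08, standard error 0.25, adjusted p = 0.0054). Here VP2.2 had the smallest difference of the 4 pools (-0.76) and VP2.6 the largest (-1.45), unlike in most of the genes. Mrpl34 (ENSMUSG00000034880), a large-subunit protein, had 15.4, 16.1, 13.2 and 12.7 CPM in TRAP and 30.3, 31, 30.3 and 23.4 CPM in INPUT (a level that fell by 1.00 on the log2 scale, standard error 0.24, adjusted p = 0.006), and its differences were alike in all pools, from -1.20 to -0.88.

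Mrpl20 (ENSMUSG00000029066), a large-subunit protein of a bacterial family, had 150, 128, 188 and 164 CPM in TRAP and 269, 500, 222 and 237 CPM in INPUT (log2 fold change -0.89, standard error 0.27, adjusted p = 0.019). Its fractions did not overlap, and its difference ran from -1.96 in VP2.2 to -0.24 in VP2.6. The call was lost without VP1.6 (adjusted p = 0.054). The remaining 6 genes that were lower were the small-subunit genes Mrps16 (log2 fold change -0.82, adjusted p = 0.021), Mrps15 (-0.72, adjusted p = 0.034) and Mrps14 (-0.70, adjusted p = 0.044) and the large-subunit genes Mrpl23 (-0.80, adjusted p = 0.033), Mrpl13 (-0.80, adjusted p = 0.016) and Mrpl57 (-0.74, adjusted p = 0.041). All of them had TRAP below INPUT in the 4 pools, and the protein of Mrpl23 belongs to a family found at the end of the tunnel through which the nascent chain leaves the ribosome. Each of the 6 lost its call when some pool was left out. Without VP1.6 the adjusted p was 0.067 for Mrps16, 0.17 for Mrps15, 0.1 for Mrps14, 0.062 for Mrpl13 and 0.067 for Mrpl57. Without VP2.2 it was 0.059 for Mrps16, 0.11 for Mrps14, 0.12 for Mrpl23 and 0.088 for Mrpl57. Without VP2.6 it was 0.071 for Mrps15, 0.053 for Mrps14 and 0.26 for Mrpl57, and without VP2.11 it was 0.077 for Mrps15, 0.063 for Mrps14, 0.1 for Mrpl23 and 0.067 for Mrpl13.

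Of the 20 called genes, 7 also passed under all 10 alternative settings, namely Mrps18c, Mrpl18, Mrpl42, Mrpl51 and Mrps18a (lower) and Mrps22 and Mrps31 (higher). The exons of 7 of the 20 overlap exons of another gene, and whether the counting used strand is not given in the sources used here. The overlaps are Mrps18c with Gm43511, Mrps24 with Urgcp and Mrpl51 with Mir3098 on the same strand, and Mrpl18 with Tcp1, Mrpl12 with Gm16755, Mrpl13 with Mtbp and Mrpl19 with Gcfc2 on the opposite strand. In all, 30 of the 75 genes overlap another gene's exons, and the part of this in their values was not tested.

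**Figure D2:**
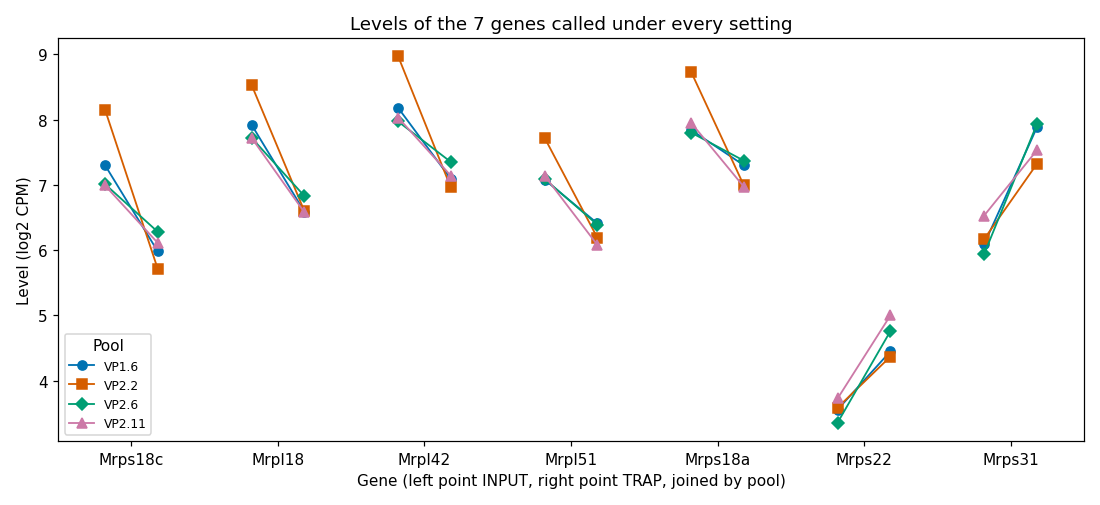
Level (log2 CPM, y axis) in INPUT (left point) and TRAP (right point) of each pool, joined by a line, for the 7 genes that were called under all 10 alternatives. Lines of the 4 pools fall for Mrps18c, Mrpl18, Mrpl42, Mrpl51 and Mrps18a, most steeply in VP2.2, and rise for Mrps22 and Mrps31.

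The sequences around the start sites of the pair highest above INPUT and the pair furthest below it show what these promoters hold. The windows are from RefSeq (GRCm38.p6), 250 bases before to 50 after the annotated start, on the strand of the gene and 5′ to 3′. Capitals mark matches, on either strand, to motifs of factors known to act at genes for mitochondrial proteins, NRF1 (GCGCA and GCGC with 1 base of any kind between them), ETS factors such as GABPA (CCGGAAG) and YY1 (AAGATGGC), whose letters do not overlap in these windows.
Mrps31, higher in TRAP, chr8:22411090-22411389, plus strand, no match: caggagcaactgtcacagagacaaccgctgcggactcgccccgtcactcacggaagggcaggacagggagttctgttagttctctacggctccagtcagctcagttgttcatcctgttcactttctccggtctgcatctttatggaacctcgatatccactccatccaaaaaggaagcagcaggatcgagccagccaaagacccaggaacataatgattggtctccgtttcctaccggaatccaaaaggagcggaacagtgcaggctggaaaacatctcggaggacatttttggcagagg
Mrps22, higher in TRAP, chr9:98601630-98601929, minus strand, ETS match at -11: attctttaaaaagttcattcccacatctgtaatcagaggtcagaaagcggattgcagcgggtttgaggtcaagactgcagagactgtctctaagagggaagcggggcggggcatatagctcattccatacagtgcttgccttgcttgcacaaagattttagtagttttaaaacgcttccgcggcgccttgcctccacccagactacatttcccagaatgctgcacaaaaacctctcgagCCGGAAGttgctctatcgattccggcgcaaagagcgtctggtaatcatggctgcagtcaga
Mrps21, lower in TRAP, chr3:95871465-95871764, minus strand, NRF1 match at -91 and ETS match at 19: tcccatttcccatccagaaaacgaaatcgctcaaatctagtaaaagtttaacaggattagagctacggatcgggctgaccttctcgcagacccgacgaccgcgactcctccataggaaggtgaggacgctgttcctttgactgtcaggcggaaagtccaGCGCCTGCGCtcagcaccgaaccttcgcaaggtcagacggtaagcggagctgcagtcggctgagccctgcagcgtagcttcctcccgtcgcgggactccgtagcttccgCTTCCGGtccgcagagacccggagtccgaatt
Mrps18c, lower in TRAP, chr5:100798509-100798808, plus strand, ETS match at -156: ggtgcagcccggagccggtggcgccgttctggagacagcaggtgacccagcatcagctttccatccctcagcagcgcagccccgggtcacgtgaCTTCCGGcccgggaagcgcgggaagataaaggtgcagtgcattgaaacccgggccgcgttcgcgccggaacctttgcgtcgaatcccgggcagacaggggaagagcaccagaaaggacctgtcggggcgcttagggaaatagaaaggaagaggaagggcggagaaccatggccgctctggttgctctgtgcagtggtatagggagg

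Windows were found for 67 of the 75 genes, 73 windows in all. The ETS letters were in 32.9% of these windows, against 8.86% of the 32851 windows of all genes, the NRF1 letters in 17.8% against 4.6%, and the YY1 letters in 16.4% against 2.75%. Counted by gene, the ETS letters were in 24 of the 67 (35.8%, against 19.2% of the genes tested), NRF1 in 13 (19.4%, against 11.5%) and YY1 in 12 (17.9%, against 5.19%). Genes called and not called in TRAP against INPUT both held them. Of the 15 matched genes that were lower, 8 held ETS, 3 held NRF1 and 3 held YY1, of the 3 that were higher 1 held ETS, 1 NRF1 and 0 YY1, and of the 49 called in neither direction 15, 9 and 9. A match describes letters and does not show that a factor binds there. Another feature that the choice of genes did not use was a divergent neighbour. This was a protein-coding gene on the opposite strand that starts at most 1000 bp upstream. Of the 75 genes, 17 (22.7%) had one, against 9.75% of 12736 protein-coding genes tested. Pairs in which the start of each gene lies inside the other, such as Mrps11 and Mrpl46, were not counted. Mrps18c starts 29 bp from the start of Helq, Mrpl57 49 bp from Ska3 and Mrpl51 100 bp from Ncapd2.

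The subunits were compared next. Of the 47 large-subunit genes, 9 were lower and 2 higher in TRAP, with a median log2 fold change of -0.28, and of the 28 small-subunit genes 7 were lower and 2 higher, with a median of -0.46. The shares lower were 19.1% and 25%, against 16.8% of all genes tested, and the shares higher 4.26% and 7.14%, against 15.4%. In the 4 pools the median difference of the large-subunit genes less that of the small-subunit genes was 0.16, -0.08, 0.22 and -0.05 log2 CPM, a mean of 0.06 ± 0.15 (SD, n = 4 pools). The sign differed between pools, and the mean was smaller than its spread. The summed level of the large-subunit genes was 3965 ± 467 CPM in TRAP and 5065 ± 1261 CPM in INPUT (SD, n = 4), and that of the small-subunit genes was 1928 ± 252 and 2549 ± 703 CPM.

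Some genes carry a subunit name that does not match where the protein sits. Mrps18a and Mrps30 encode proteins that structures of the mammalian mitochondrial ribosome place in the large subunit. Mrps18a (ENSMUSG00000023967) had 157, 127, 166 and 125 CPM in TRAP and 229, 424, 223 and 247 CPM in INPUT (log2 fold change -0.92, standard error 0.24, adjusted p = 0.011), with no overlap of the fractions. Mrps30 (ENSMUSG00000021731) had 13.5, 15.8, 15.8 and 18.4 CPM in TRAP and 16.6, 14.1, 14.4 and 14.1 CPM in INPUT (log2 fold change 0.10, standard error 0.26, adjusted p = 0.81), and its fractions overlapped. Mrps36 (ENSMUSG00000061474), now known as a subunit of the oxoglutarate dehydrogenase complex of the citric acid cycle, had 85.2, 53.8, 92.2 and 59.3 CPM in TRAP and 81, 159, 75.2 and 99.7 CPM in INPUT (log2 fold change -0.49, standard error 0.28, adjusted p = 0.2). TRAP was below INPUT in VP2.2 and VP2.11 and above it in the other pools. With Mrps18a and Mrps30 counted as large and Mrps36 left out, the difference between subunits was 0.01 ± 0.20 log2 CPM (SD, n = 4 pools).

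Mrps18a, Mrps18b and Mrps18c belong to the same bacterial family, and Mrps18b was looked at after the values of the others were seen. Mrps18b (ENSMUSG00000024436), whose protein lies in the small subunit, had 27.2, 19.8, 29.1 and 27.3 CPM in TRAP and 18.4, 26.9, 18.2 and 21.4 CPM in INPUT (log2 fold change 0.29, standard error 0.26, adjusted p = 0.42). It was above INPUT in 3 pools and below it in VP2.2, whereas its relatives Mrps18a and Mrps18c were lower in TRAP in all 4.

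Divided by ancestry, 44 of the 75 genes were listed as having a bacterial homologue and 28 as mitochondrion-specific. The lists were not checked against protein sequences, so the class of single genes is uncertain. Mrps28, Mrps36 and Mrpl55 were put in neither class. Of the genes with a bacterial homologue, 13 were lower and 1, Mrpl19, was higher (median log2 fold change -0.36). Of the mitochondrion-specific genes, 3 were lower (Mrpl42, Mrpl51 and Mrpl57) and 3 higher (Mrps31, Mrps22 and Mrpl39), with a median of -0.22. The shares lower and higher were 29.5% and 2.27% with a bacterial homologue and 10.7% and 10.7% without, against 16.8% and 15.4% of all genes tested. The median of the first class less that of the second was -0.22, -0.21, -0.36 and -0.13 log2 CPM in the 4 pools, a mean of -0.23 ± 0.10 (SD, n = 4 pools), with the same sign in every pool. With the trend over exon length taken out, by subtracting in each pool a smooth curve (loess) of the TRAP minus INPUT difference over the total exon length of all genes tested, it was -0.20, -0.24, -0.32 and 0.02, a mean of -0.19 ± 0.15, and the sign turned in VP2.11.

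The classes were furthest apart within the small subunit. Subunits go by gene name here, so Mrps18a and Mrps30 are counted as small. Of the 17 small-subunit genes with a bacterial homologue, 7 (41.2%) were lower and 0 higher by limma with the pool as a block. Their median log2 fold change was -0.51, and 1 was higher at an unadjusted p under 0.05 and 1 without the pool in the fit. Of the 9 mitochondrion-specific small-subunit genes, 2 (22.2%) were higher and 0 lower (median 0.10). Also 0 were lower at an unadjusted p under 0.05 or without the pool in the fit. The shares over all genes tested were 16.8% lower and 15.4% higher. Small-subunit proteins whose genes carry other names are not in these classes. Of those, Dap3 and Ptcd3 were higher and Chchd1 was lower in TRAP, as given below. In the large subunit the 27 genes with a bacterial homologue had a median of -0.27, with 6 (22.2%) lower and 1 (3.7%) higher. The 19 mitochondrion-specific genes had a median of -0.33, with 3 (15.8%) lower and 1 (5.26%) higher. Median exon length was 3991 bases for the mitochondrion-specific genes of the small subunit and 2172 bases for those with a bacterial homologue. With the trend over exon length taken out, their median log2 fold changes were 0.20 and -0.51. These classes were described after other results of these data were known, and no test of the difference was made.

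**Figure D3:**
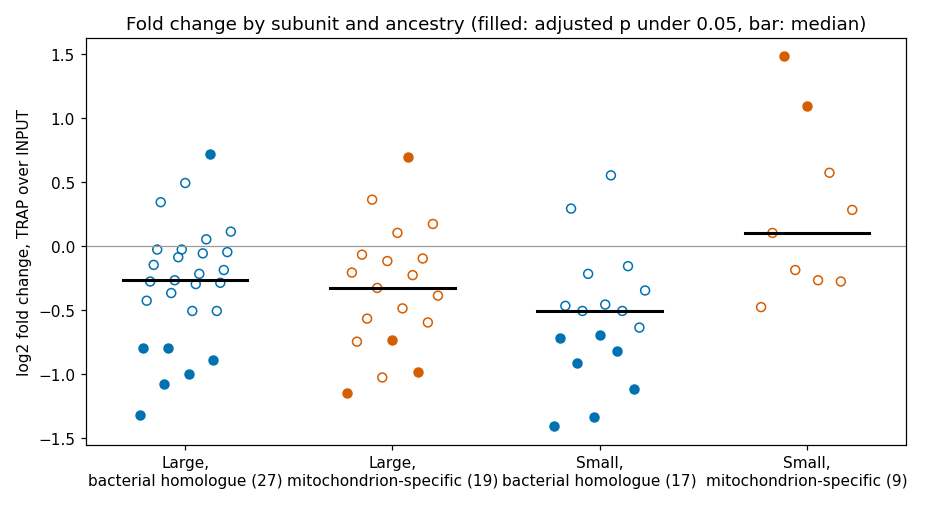
Log2 fold change of TRAP over INPUT (y axis) of each gene, grouped by subunit name and by whether a bacterial homologue was listed (x axis, number of genes in brackets). Filled points mark an adjusted p under 0.05, and a bar marks the median of each class. The medians are -0.27, -0.33, -0.51 and 0.10 from left to right. In the class on the right 0 of 9 genes were called lower, against 16.8% of all genes tested.

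Several uncalled genes of the small subunit had TRAP above INPUT, and 2 of them are described here because their values stood out. Mrps27 (ENSMUSG00000041632), a mitochondrion-specific protein with pentatricopeptide repeats, had 60.6, 49.2, 67.5 and 63.1 CPM in TRAP and 38.3, 46, 34.8 and 42.8 CPM in INPUT (log2 fold change 0.57, standard error 0.23, adjusted p = 0.068). Mrps5 (ENSMUSG00000027374), of a bacterial family that sits near the entry of the mRNA, had 132, 97.1, 123 and 108 CPM in TRAP and 68.6, 87, 71.8 and 86.2 CPM in INPUT (log2 fold change 0.55, standard error 0.22, adjusted p = 0.069). The fractions of both genes did not overlap, and both passed without the pool in the fit (adjusted p = 0.0093 and 0.0099). With VP2.2 left out both passed (adjusted p = 0.017 for Mrps27 and 0.021 for Mrps5), but neither did without VP1.6 (0.21 and 0.32), VP2.6 (0.33 and 0.27) or VP2.11 (0.13 and 0.095). With the trend over exon length taken out Mrps27 passed (0.89, adjusted p = 0.0026) and Mrps5 did not (0.25, adjusted p = 0.38).

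Levels of the genes relative to each other were compared as INPUT CPM per kilobase of total exon length, all annotated exons of a gene joined. The highest were Mrpl41 (290 CPM per kilobase), Mrps21 (262), Mrpl18 (185), Mrpl20 (184) and Mrpl27 (176), and the lowest were Mrps35 (1.32), Mrps30 (2.22) and Mrps22 (2.97). The median of the 75 genes was 30.5 CPM per kilobase in INPUT and 25.1 in TRAP. Among the 5 highest, Mrps21, Mrpl18 and Mrpl20 were lower in TRAP, while Mrpl41 and Mrpl27 were not called. Mrpl41 (ENSMUSG00000036850), a mitochondrion-specific large-subunit protein, had 282, 202, 318 and 278 CPM in TRAP and 224, 379, 196 and 231 CPM in INPUT (log2 fold change 0.10, standard error 0.26, adjusted p = 0.81). Mrpl27 (ENSMUSG00000024414), which lies near the site of peptide bond formation, had 156, 109, 195 and 145 CPM in TRAP and 147, 274, 118 and 155 CPM in INPUT (log2 fold change -0.15, standard error 0.28, adjusted p = 0.71). In both, VP2.2 had TRAP far below INPUT and VP2.6 had TRAP above it.

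Mrps35 (ENSMUSG00000040112), a mitochondrion-specific small-subunit protein, had 13.4, 10.8, 19.1 and 12.6 CPM in TRAP and 10.9, 14.2, 8.47 and 12.1 CPM in INPUT (log2 fold change 0.28, standard error 0.30, adjusted p = 0.5). Mrps31 moved from rank 44 of 75 by INPUT CPM per kilobase to rank 12 by TRAP CPM per kilobase. Exon lengths join all annotated isoforms, so these levels per length are approximate.

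The pools differed from each other in these genes. The median TRAP minus INPUT difference of the 75 genes was -0.20, -0.93, 0.01 and -0.19 log2 CPM in the 4 pools, where the medians over all genes tested ran from -0.04 to -0.01. TRAP was below INPUT for 45, 67, 37 and 44 of the 75 genes, against 51.1%, 50.5%, 51.8% and 50.3% of all genes tested. In VP2.2 these genes thus stood apart from the median of all genes tested, and VP2.6 had a median near 0. A low VP2.2 median was also seen in other short genes. Over all genes tested it was -1.64 up to 1500 bases of exon length and -0.57 from 1501 to 3000 bases. From 3001 to 5000 bases it was -0.08, and over 5000 bases 0.61. The 75 genes had -1.35, -0.78, -0.81 and -0.56 in the same bins. The VP2.2 difference was the lowest of the 4 pools for 58 of the 75 genes, against 29.7% of all genes tested. In that pool INPUT was the highest of the INPUT libraries for 61 genes (32.8% of all genes) and TRAP the lowest of the TRAP libraries for 50 (27.5% of all genes).

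Summed over the 75 genes, the level in TRAP was 6116, 4895, 6583 and 5975 CPM and that in INPUT 6812, 10536, 6290 and 6817 CPM in the same order of pools. INPUT of VP2.2 was higher than every other library. Averaged over pools this made 5892 ± 714 CPM for TRAP and 7614 ± 1964 CPM for INPUT (SD, n = 4). INPUT of VP2.2 had the lowest Slc17a6 level, 14.4 CPM, and the lowest summed level of the GABA neuron markers, 584 CPM against 1214 to 1394 CPM in the other pools. Its pan-neuronal markers were uneven, with Snap25 (2621 CPM) and Syt1 (413 CPM) the lowest of the INPUT libraries and Stmn2 (1077 CPM) and Rbfox3 (142 CPM) the highest. TRAP of VP2.2 had the highest summed levels of the TRAP libraries for GABA neurons (1573 CPM), astrocytes (253 CPM), oligodendrocytes (1631 CPM) and microglia (22.1 CPM). The part of these marker levels in the shift was not tested. Over all genes tested, a gene's deviation from the TRAP mean and its deviation from the INPUT mean ran against each other within a pool (Pearson's r across genes -0.495 to -0.745). Without VP2.2, 11 of the 75 genes were lower and 8 higher in TRAP, where the same fit called 14.3% of all genes tested lower and 14.9% higher.

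The order of the genes was in part shared between pools. Across the 75 genes, which are not independent replicates, Spearman's rho of the TRAP minus INPUT difference between pairs of pools was 0.352 to 0.689, the lowest being VP2.6 with VP2.11. Mrpl9 (ENSMUSG00000028140), named after its values were seen, had the narrowest range of differences over the pools, with 46, 48, 48.4 and 48.5 CPM in TRAP and 50.2, 48.4, 47.9 and 48.2 CPM in INPUT (log2 fold change -0.03, standard error 0.21, adjusted p = 0.93).

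The widest ranges of differences were in Mrpl52, Mrpl54 and Mrps10. Mrpl52 (ENSMUSG00000010406), a mitochondrion-specific large-subunit protein, had 15.7, 13.7, 16.4 and 54.6 CPM in TRAP and 49.2, 62.4, 41.4 and 26.7 CPM in INPUT (log2 fold change -1.03, standard error 0.39, adjusted p = 0.056). TRAP was below INPUT in 3 pools and above it in VP2.11, and its log2 fold change was -1.72 without VP2.11 (adjusted p = 0.0011), -0.65 without VP2.2 (adjusted p = 0.27) and -0.34 with the trend over exon length taken out (adjusted p = 0.45). Mrpl54 (ENSMUSG00000034932), of the same class, had 3.34, 3.81, 9.15 and 4.69 CPM in TRAP and 11.7, 9.72, 5.66 and 6.87 CPM in INPUT (log2 fold change -0.75, standard error 0.40, adjusted p = 0.17), where VP2.6 went against the other pools. Its log2 fold change was -0.40 without VP1.6 (adjusted p = 0.57) and -1.24 without VP2.6 (adjusted p = 0.052). Mrps10 (ENSMUSG00000034729), of a bacterial family, had 23.6, 15.8, 22.7 and 41.6 CPM in TRAP and 32.9, 51.5, 32.7 and 26 CPM in INPUT (log2 fold change -0.51, standard error 0.31, adjusted p = 0.23), and its log2 fold change was -0.91 without VP2.11 (adjusted p = 0.041) but -0.11 without VP2.2 (adjusted p = 0.79).

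The shift was compared with that of other gene groups for energy and protein synthesis. Of 79 cytosolic ribosomal protein genes, 54 (68.4%) were lower in TRAP and 0 were higher by limma with the pool as a block. Also 0 were higher at an unadjusted p under 0.05 or without the pool, and the median log2 fold change was -1.08. Nuclear genes for subunits of oxidative phosphorylation, the complexes in which the products of mitochondrial translation are assembled, numbered 81. Of these, 36 (44.4%) were lower and 4 (4.94%) higher, with a median of -0.61. The shares over all genes tested were 16.8% lower and 15.4% higher. The median of the mitochondrial ribosomal protein genes, -0.30, lay between those of these groups and that of all genes tested (-0.05) on the deposited scale. By pool, the medians were -0.98, -1.99, -0.48 and -0.93 log2 CPM for the cytosolic ribosomal protein genes and -0.58, -1.48, -0.14 and -0.29 for the oxidative phosphorylation genes. All these groups had their lowest median in VP2.2, as the mitochondrial ribosomal protein genes did, and the order of these 3 groups was the same in each pool on the deposited scale. With the trend over exon length taken out, the median was -0.66 for the cytosolic ribosomal protein genes (42 lower, 53.2%, and 0 higher). It was -0.11 for the oxidative phosphorylation genes (18 lower, 22.2%, and 10 higher, 12.3%). For the mitochondrial ribosomal protein genes it was -0.08 and for all genes tested -0.09 (18% lower, 14.1% higher). On that scale the median of the mitochondrial ribosomal protein genes no longer lay between the others. By pool, the oxidative phosphorylation genes then had -0.11, -0.53, 0.15 and 0.07 log2 CPM and the mitochondrial ribosomal protein genes -0.10, -0.42, 0.10 and 0.07, so their order turned in VP2.6 and they were level in VP2.11. The groups share libraries, and their difference was not tested.

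**Figure D4:**
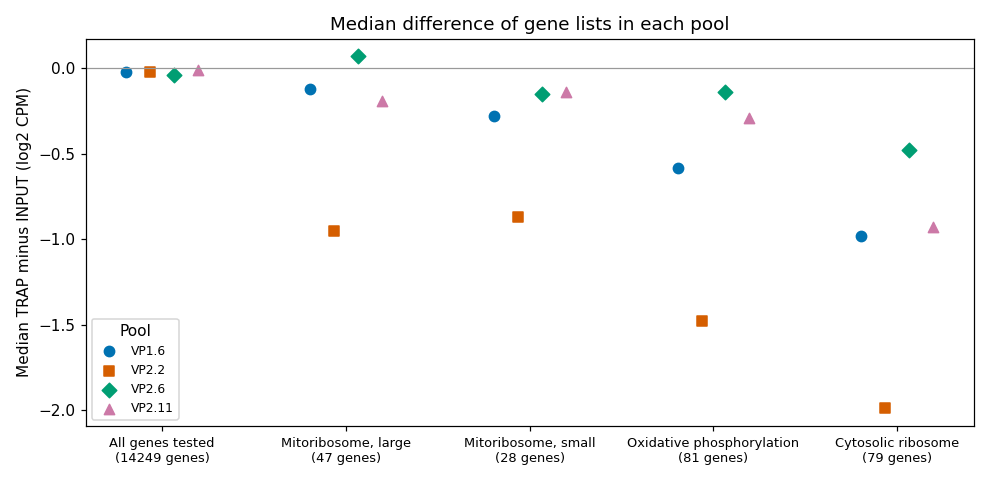
Median TRAP minus INPUT difference (log2 CPM, y axis) in each pool (symbols) for all genes tested and for 4 gene lists (x axis, number of genes in brackets). The medians of all genes tested lie near 0 in every pool, while VP2.2 is the lowest pool for each list, at -1.99 for the cytosolic ribosome. Not shown, all genes tested with up to 1500 bases of exon length had a VP2.2 median of -1.64.

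Genes with short transcripts were lower in TRAP over the whole table, and mitochondrial ribosomal protein genes are short. Their median total exon length was 2533 bases, against 4274 bases for all genes tested. Spearman's rho between exon length and log2 fold change was 0.412 across the 14249 genes and 0.259 across the 75. In bins chosen after the data were seen, the 19 genes of up to 1500 bases had a median log2 fold change of -0.49, against -0.89 for all genes of that length, and the 26 of 1501 to 3000 bases had -0.27 against -0.33. The 17 genes of 3001 to 5000 bases had -0.33 against -0.08, and the 13 over 5000 bases had -0.19 against 0.28. The short genes were thus above, and the long genes below, other genes of their length.

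**Figure D5:**
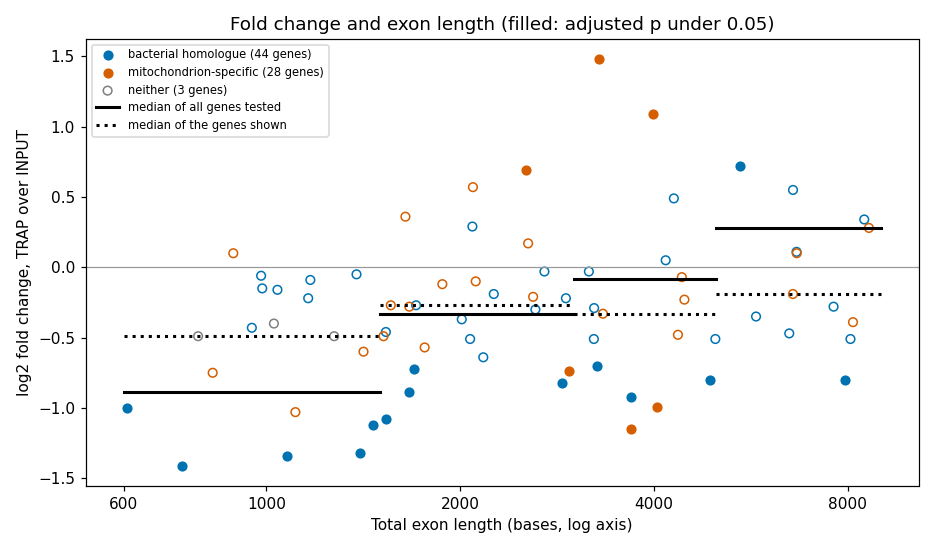
Log2 fold change of TRAP over INPUT (y axis) against total exon length (bases, x axis on a log scale) of the 75 genes, coloured by ancestry and filled where the adjusted p was under 0.05. Solid lines give the median of all genes tested and dotted lines the median of the genes shown in 4 bins of length, and the solid line climbs from -0.89 to 0.28 while the dotted line goes from -0.49 to -0.19.

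With the trend over exon length taken out, 13 of the 75 genes were lower and 10 higher (17.3% and 13.3%, against 18% and 14.1% of all genes tested), and the median log2 fold change was -0.08, against -0.09 for all genes. Of the 20 calls, 11 remained, 8 lower and 3 higher. Mrpl34, the shortest of the 75 genes at 607 bases, came to -0.02 (adjusted p = 0.96) and Mrps21, at 739 bases, from -1.41 to -0.51 (adjusted p = 0.06). The calls of Mrps24 (adjusted p = 0.13), Mrpl12 (0.091), Mrpl20 (0.15), Mrpl57 (0.064), Mrps15 (0.39), Mrps14 (0.052) and Mrpl19 (0.066) were also lost. Mrps31 (1.58, adjusted p = 6.1e-05) and Mrps22 (1.07, adjusted p = 0.0033) stayed higher, and Mrpl13 (-1.20, adjusted p = 0.0014), Mrpl42 (-1.12, adjusted p = 0.0019) and Mrpl51 (-1.02, adjusted p = 0.0015) stayed lower. Mrpl41 was called higher on this scale (0.90, adjusted p = 0.0037), as were Mrpl27 (0.60, adjusted p = 0.047), Mrps18b (0.61, adjusted p = 0.041) and Mrps27 (0.89, adjusted p = 0.0026). The other new calls higher were Mrpl44 (0.84, adjusted p = 0.0032), Mrpl22 (0.70, adjusted p = 0.014) and Mrpl28 (0.52). Newly called lower were Mrps10 (-0.92, adjusted p = 0.046), Mrpl48 (-0.81, adjusted p = 0.0082), Mrpl32 (-0.68, adjusted p = 0.019), Mrps17 (-0.76, adjusted p = 0.019) and Mrps9 (-0.59, adjusted p = 0.03). The large-subunit median was then above the small-subunit median in all pools, by 0.24, 0.28, 0.25 and 0.15 log2 CPM, a mean of 0.23 ± 0.05 (SD, n = 4 pools). The part of length in the differences was not separated from that of cell content.

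The other proteins of mitochondrial translation were read from lists of known members. Of 5 mitochondrial ribosomal proteins whose genes carry other names, Dap3 and Ptcd3 were higher and Chchd1 was lower in TRAP. These shares were 40% higher and 20% lower, against 15.4% and 16.8% of all genes tested. Dap3, the GTP-binding protein of the small subunit, averaged 295 ± 50.6 CPM in TRAP and 165 ± 23.8 CPM in INPUT (± SD, n = 4, log2 fold change 0.84, standard error 0.23, adjusted p = 0.012). Ptcd3, a small-subunit protein with pentatricopeptide repeats, had 82.8 ± 14.5 and 46.9 ± 10.4 CPM (0.83, adjusted p = 0.017). Chchd1, a small protein of the same subunit, had 85.5 ± 18.8 and 201 ± 98.1 CPM (-1.15, adjusted p = 0.0078). With the length trend taken out, none of these 3 passed (adjusted p = 0.073, 0.081 and 0.21).

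Of 15 genes for mitochondrial translation factors and mRNA stabilisation, 4 (26.7%) were higher and 1 (6.67%) was lower, against 15.4% and 16.8% of all genes tested. Lrpprc, which stabilises mitochondrial mRNAs, had 192, 167, 203 and 252 CPM in TRAP and 74.5, 58, 67 and 70.5 CPM in INPUT (log2 fold change 1.58, standard error 0.21, adjusted p = 0.00011). Slirp, whose product binds that of Lrpprc, had 35, 24.9, 39.8 and 48.8 CPM in TRAP and 74.5, 130, 62.9 and 54.2 CPM in INPUT (-1.07, standard error 0.30, adjusted p = 0.014). The partners thus differed in opposite directions, each without overlap of its fractions, and both passed with the length trend taken out as well (adjusted p = 0.00059 and 0.018). The elongation factors Tufm (1.17, adjusted p = 0.0013) and Gfm1 (1.15, adjusted p = 0.0024) and the release factor Mtrf1l (1.29, adjusted p = 0.021) were higher.

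Of 23 genes that charge mitochondrial tRNAs or prepare the charged tRNAs, 5 (21.7%, against 15.4% of all genes tested) were higher by limma with the pool as a block. By the same fit 0 were lower (against 16.8%), while 2 were lower at an unadjusted p under 0.05 and 2 without the pool. Vars2 had the largest log2 fold change of these (2.46, adjusted p = 0.0067), but its levels were uneven, with 6.62, 16.9, 10.5 and 71.5 CPM in TRAP and 8.17, 1.11, 3.77 and 2.73 CPM in INPUT. Also higher were Iars2 (1.01, adjusted p = 0.023), Gars (0.91, adjusted p = 0.005), which also serves the cytosol, and Qrsl1 (0.73, adjusted p = 0.033). With the length trend taken out, Iars2 had 0.55 (adjusted p = 0.14) and was no longer called. On that scale 4 of the 23 (17.4%) were higher and 2 (8.7%) lower, against 14.1% and 18% of all genes tested. Of 27 genes for assembly of the mitochondrial ribosome and modification of its rRNA, 0 were higher and 2 (7.41%) lower. The lower ones were Mtg2 (-1.22, adjusted p = 0.021) and Mief1 (-0.74, adjusted p = 0.037). There, 2 were higher at an unadjusted p under 0.05 and 3 without the pool in the fit. With the length trend taken out, 4 of the 27 were higher and 4 lower (14.8% each), against 14.1% and 18% of all genes tested. Of 7 genes for transcription of the mitochondrial genome, 2 (28.6%) were higher, the mitochondrial RNA polymerase Polrmt (1.17, adjusted p = 0.016) and Mterf2 (0.66, adjusted p = 0.03). In that list 0 were lower, also at an unadjusted p under 0.05 and without the pool. The shares over all genes tested were 15.4% higher and 16.8% lower.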

How the data were processed

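TRAP and INPUT RNA of 4 pools of VP tissue was sequenced in 8 libraries. Per the methods, the authors used STAR 2.5.1a with the Ensembl mouse genome (GRCm38), took uniquely aligned reads into gene counts by featureCounts and scaled libraries by TMM. The authors deposited log2 CPM values per gene and library. Their fold changes, confidence limits and p-values in the same table were not used. INPUT of VP1.6 and both libraries of VP2.11 are rounded to 3 significant digits. Among 14398 rows, 45 were repeats of a gene and were dropped. Total counts were not used here and depth was not determined, so no counting interval is given.

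A gene was tested where 3 or more libraries were over 1 CPM, with limma 3.58.1 in R 4.3.3 (lmFit, then eBayes with a trend) on the deposited log2 values. Fraction and pool were in the fit, with Benjamini-Hochberg adjustment and a threshold of 0.05. The fit was also run on simulated data, in which a pool shifted both fractions the same way. In the real data the fractions of a pool ran against each other, so the simulation does not show how the fit behaves on them. The study's methods name no pool block, and that fit is an alternative. The pool pairs the libraries by label and by their common homogenate, and n is the number of pools. Exon lengths, positions and overlaps came from GENCODE (GRCm38), and promoters from RefSeq (GRCm38.p6). The trend over length was a loess curve (span 0.3) of the difference on log2 exon length over all genes, taken out of each TRAP library.

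Full values are given for up to 10 called genes in each direction, the 5 highest and 3 lowest by INPUT level per kilobase, genes whose name and location differ, and the 3 widest ranges over pools. Mrps18b, Mrps27, Mrps5 and Mrpl9 were added after values were seen. Listed genes of mitochondrial translation were named if called, up to 5 per list, except 1 that is not reported here. The members and lists were chosen with earlier results of these data known. Protein sequences were not used here.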

Additional observations from a re-analysis of the deposited data

Results flagged for a closer look

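The levels of 64 groups, the 4 TRAP and the 4 INPUT libraries of each of the 32 genes named above, were examined for a single library far from the other 3 of its fraction. Of these groups 8 had one. Chance gives about 1 in 20 independent groups, but these groups share libraries and some genes were named for their wide range over pools, so the number cannot be set against that share. INPUT of VP2.2 was high for Mrps14 (8.94 log2 CPM, the others 7.99 to 8.14), Mrps18a (8.73, the others 7.80 to 7.95) and Mrpl51 (7.72, the others 7.08 to 7.14), and TRAP of VP2.2 was low for Mrpl19 (6.85, the others 7.23 to 7.25). The call of Mrps14 was lost without VP2.2 (log2 fold change -0.39, adjusted p = 0.11 by limma). TRAP of VP2.11 was high for Mrpl52 (5.77 log2 CPM, the others 3.78 to 4.04), and INPUT of VP2.11 was low for Mrpl34 (4.55, the others 4.92 to 4.95). INPUT of VP1.6 was high for Mrps30 (4.05 log2 CPM, the others 3.82 to 3.85), and TRAP of VP2.6 was high for Mrpl18 (6.83, the others 6.58 to 6.60).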

How the results depend on the processing

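The number of genes higher in TRAP, 4 with the pool as a block, was 7 without the block, 8 with library weights, 10 with the length trend taken out and 2 to 8 with a pool left out. The number lower, 16, was 26 without the block and 9 to 14 with a pool left out, and 13 to 17 under the other alternatives. Leaving out VP1.6 gave the lowest number. Calls over all genes tested, both directions together, moved as well, from 4592 with the pool as a block to 6830 without it. They were 6013 with library weights and 4568 with the length trend taken out. With a pool left out they ran from 3232 (without VP1.6) to 4156 (without VP2.2). Whether the 75 genes moved more than all genes was not tested. The pools paired the libraries by label, and the block cannot move a fold change here, since each pool has 1 library per fraction. The difference between subunits was 0.23 log2 CPM with the length trend taken out. Signs turned for uncalled genes: Mrpl27 was 0.20 with library weights, 0.60 with the length trend taken out and -0.45 to 0.24 with a pool left out. The length trend taken out gave -0.16 for Mrps35, -0.21 for Mrps30, 0.13 for Mrps36, 0.09 for Mrpl54 and 0.14 for Mrpl9, and centring gave 0.00 for Mrpl9. With a pool left out, Mrpl41 ran from -0.10 to 0.43, Mrps35 from -0.01 to 0.51 and Mrpl9 from -0.04 to 0.00. The causes of these changes were not tested. Of the 20 calls, 20 were kept without the block, without the filter on low values and with a pseudocount of 1 CPM, 19 with library weights, 17 with centring, 11 with the length trend taken out and 11 to 15 with a pool left out. Depth was not determined, so limits from counting error could not be given for the genes of a few CPM, Mrps24 and Mrpl54.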

Other observations

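The 4 processed pseudogenes left out of the counts were measured in both fractions, Mrpl23-ps1 at the highest levels. How the counting split reads between such copies and their parent genes was not tested, so the parents' values are uncertain to that extent. Mrpl23-ps1 had 8.45 to 29.2 CPM in TRAP and 17.3 to 38.3 CPM in INPUT, Mrpl48-ps 5.22 to 10.4 and 7.62 to 11.2 CPM, Mrps36-ps1 2.39 to 6.96 and 6.96 to 12.2 CPM, and Mrps36-ps2 1.64 to 3.2 and 2.43 to 3.88 CPM. Their parents Mrpl23, which was called lower in TRAP, and Mrps36 had mean INPUT levels of 90.5 and 104 CPM. The mean TRAP levels of these parents were 51.2 and 72.6 CPM.

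Among the divergent neighbours counted by the rule given above, the partners of the 3 called mitochondrial ribosomal protein genes were not called themselves. The log2 fold change was -1.32 for Helq beside Mrps18c (-1.34), 0.10 for Ncapd2 beside Mrpl51 (-0.99) and 1.78 for Ska3 beside Mrpl57 (-0.74), with adjusted p-values of 0.13, 0.83 and 0.17 by limma for the partners.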
